A study of Mus musculus with 12 samples.

Results

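The NRF2 targets and glutathione genes described here are 36 genes chosen by symbol from a fixed list, and their messenger RNA levels were followed in mouse cardiac fibroblasts exposed to adipocyte-conditioned medium. The list holds 2 regulators, 4 genes of glutathione synthesis and recycling, 6 of the thioredoxin and peroxiredoxin system and 7 that remove superoxide and peroxide. It also holds 5 genes of NADPH supply and the pentose phosphate pathway, 7 glutathione transferases and 5 other genes of detoxification and export. All 36 symbols were found among the 24619 gene symbols of the deposited count table. Of these, 35 were among the 14400 genes with enough counts to be tested. The exception was Gpx3, which encodes the secreted plasma glutathione peroxidase and had between 2 and 11 counts in every library.

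NRF2, the product of Nfe2l2, is a transcription factor that KEAP1 normally hands over for degradation. When oxidants or electrophiles modify KEAP1, NRF2 enters the nucleus, pairs with small MAF proteins and binds antioxidant response elements near genes that make glutathione, recycle thioredoxin, supply NADPH and conjugate or export toxic compounds. Glutathione transferases attach glutathione to reactive molecules, and many of them are also driven by other factors. In fibroblasts, which lay down matrix, the system is known for limiting the oxidants that accompany TGF-beta signalling.

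The 12 libraries formed 4 groups of 3. In OE_CM the fibroblasts were given medium of adipocytes that a lentivirus made overexpress hsa-miR-548ay, a human microRNA, and in VEC_CM the adipocytes carried the vector lentivirus. In TGF_KD_CM the fibroblasts were given TGF-beta1, a cytokine that drives fibroblasts towards a contractile, matrix-producing state, and medium of adipocytes carrying an inhibitor of the same microRNA. Fibroblasts of TGF_VEC_CM were given TGF-beta1 and medium of adipocytes with vector lentivirus. In all 4 groups primary cells grown in 10% serum were starved for 12 h and kept in the medium for 24 h, and 1.3 µg of total RNA went into each library. The microRNA was altered in the adipocytes, so the fibroblast libraries hold no check of it. The labels used here name no strain, age or sex of the mice. Groups follow the sample titles, since in OE_CM and TGF_KD_CM the treatment text runs on to miR-549ay for replicate 2 and miR-550ay for replicate 3. Whether each library is a culture of its own is not stated, so p-values measure the spread between these libraries only, which may be technical.

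Library totals lay between 33379207 and 37226153 counts, and the 36 genes together took between 0.526% and 0.573% of them. CPM values given here are counts scaled by library total and TMM factors. At this depth 3 counts corresponded to at most 0.0899 CPM by library total alone, a floor that covers counting error only. With TMM factors 3 counts in OE_CM replicate 3 were 0.0939 CPM. Of the fibroblast markers, Col1a1, Col1a2, Vim and Fn1 had group means from 1303 CPM upward. Group means were 89.6 to 122 CPM for Col3a1, 96.0 to 216 CPM for Pdgfra and 57.2 to 138 CPM for Pdgfrb. Dcn and Lum were near 0, with group means of 0.119 to 0.146 CPM and at most 0.00941 CPM. Tcf21 was not found under that symbol in the count table. The markers were thus mixed, and the cell type is taken from the labels. OE_CM replicate 1 stood apart in its leukocyte and macrophage markers, which summed to 38.3 CPM there and to 26.9 and 23.4 CPM in the other 2 OE_CM libraries. For members in OE_CM against VEC_CM, results are therefore also given without that library where this changed a call. For the difference between effects only the counts are given without it, and the other pathway genes were not recounted.

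Sequences near the start of transcription are shown for the 3 transferase genes whose levels the comparisons turn on, and for members that share letters of the antioxidant response element. They come from the RefSeq promoter table of GRCm38.p6, which covers 250 bases before to 50 bases after each start and held windows for 28 of the 36 genes. The core TGACNNNGC was searched on both strands, N standing for any base. Windows of 11 of these 28 members (39.3%) held it, against 3781 of 27025 genes (14.0%) in the whole table, and counted by window the shares were 29.7% and 12.4%. Gstm1 and Mgst1 have 2 windows each, of which 1 is shown. Capitals mark the core in the sequences below, each of which is written 5′ to 3′, and a match is a description of letters and not a bound site.
Gsto1 (chr19:47854723-47855022, plus strand, no core): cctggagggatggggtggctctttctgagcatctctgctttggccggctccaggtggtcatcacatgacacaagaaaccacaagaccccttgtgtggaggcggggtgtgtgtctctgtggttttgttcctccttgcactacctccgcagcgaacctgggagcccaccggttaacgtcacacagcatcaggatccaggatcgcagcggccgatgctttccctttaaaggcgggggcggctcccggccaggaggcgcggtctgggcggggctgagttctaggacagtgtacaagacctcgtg
Gstm1 (chr3:108017924-108018223, minus strand, no core): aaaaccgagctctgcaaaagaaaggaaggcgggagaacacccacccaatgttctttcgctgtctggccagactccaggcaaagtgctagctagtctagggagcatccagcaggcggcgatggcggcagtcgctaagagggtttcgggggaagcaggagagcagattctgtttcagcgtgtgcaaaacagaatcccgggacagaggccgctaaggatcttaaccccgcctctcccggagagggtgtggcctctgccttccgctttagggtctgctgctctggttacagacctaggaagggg
Mgst1 (chr6:138140277-138140576, plus strand, core read on the other strand): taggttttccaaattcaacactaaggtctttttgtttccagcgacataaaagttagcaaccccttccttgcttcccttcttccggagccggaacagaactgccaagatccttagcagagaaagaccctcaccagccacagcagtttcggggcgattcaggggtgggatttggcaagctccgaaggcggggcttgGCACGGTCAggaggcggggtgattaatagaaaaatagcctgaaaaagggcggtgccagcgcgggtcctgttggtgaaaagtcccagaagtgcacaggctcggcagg

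The remaining 10 members with a core were Nfe2l2, Gclm, Txnrd1, Srxn1, Prdx1, Sod1, G6pdx, Pgd, Me1 and Gstm5. A pair of cores occurred in more than 1 of them, and these are shown with 10 bases on each side, on the strand that reads the core. Prdx1 and Me1 shared a core that contains TGACTCA, the letters of an AP-1 site, so the motifs overlap there. Sod1 and Gstm5 shared another.
Prdx1 (chr4:116685456-116685484, minus strand): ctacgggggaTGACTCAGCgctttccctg
Me1 (chr9:86695902-86695930, minus strand): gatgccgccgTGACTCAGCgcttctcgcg
Sod1 (chr16:90220696-90220724, minus strand): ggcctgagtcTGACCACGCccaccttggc
Gstm5 (chr3:107895802-107895830, plus strand): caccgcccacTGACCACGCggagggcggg

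Per unit of transcript length, the most abundant of the genes over the 4 groups was Gsto1, at a mean of 375 FPKM (deposited values, scaled by transcript length and library total), followed by Sod1 at 342, Txn1 at 324, Prdx1 at 298 and Gpx4 at 246 FPKM. Sod1 encodes the cytosolic copper-zinc superoxide dismutase, Txn1 thioredoxin, Prdx1 a peroxidase that thioredoxin recycles, and Gpx4 the glutathione peroxidase that reduces lipid peroxides. The median over the 36 genes was 61.8 FPKM. Lowest were Nqo1, the classical NRF2 target that encodes a quinone reductase, at 4.94 FPKM and Gpx3 at 0.0922 FPKM. Nfe2l2 itself averaged 17.3 and Keap1 28.7 FPKM.

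**Figure D1:**
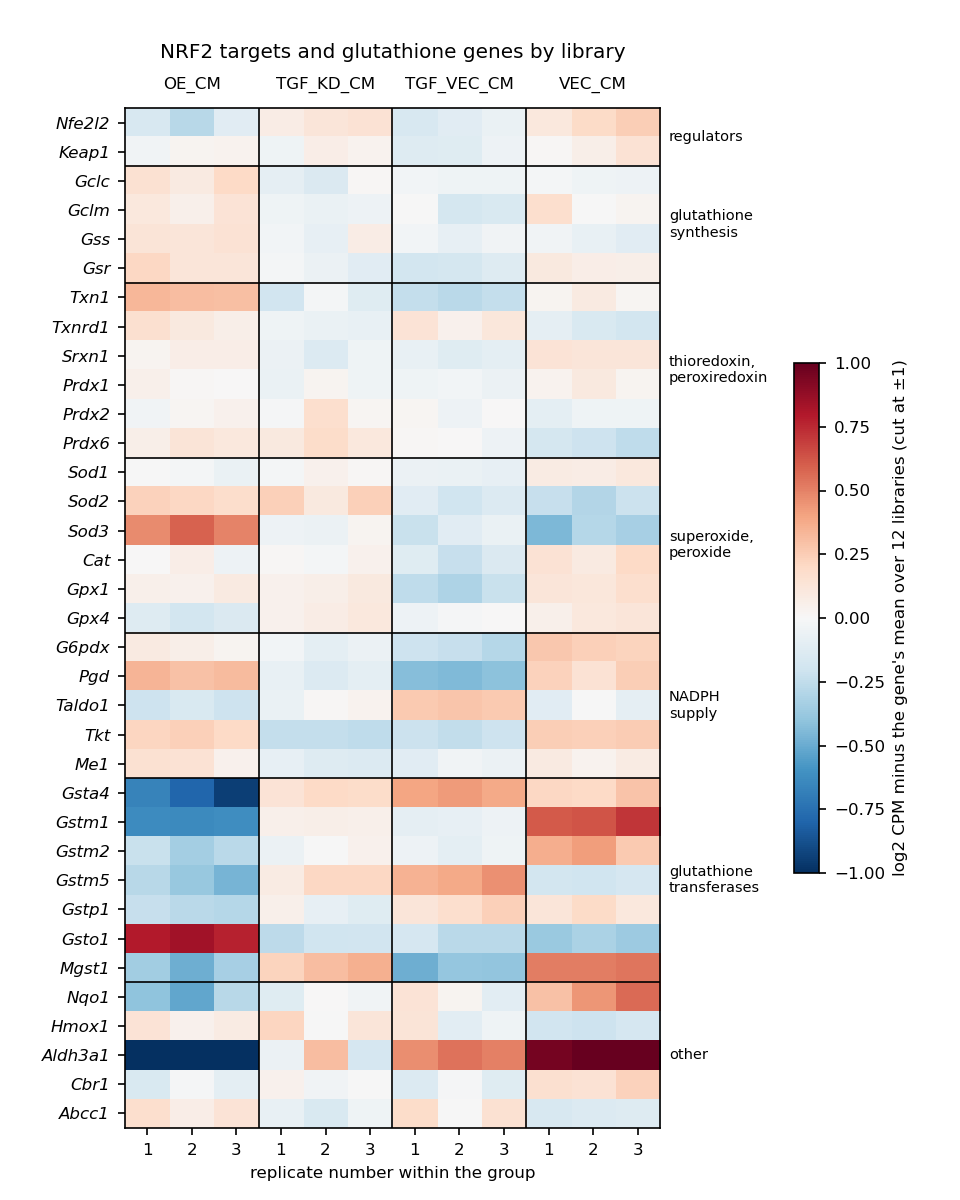
Level of the 35 tested genes (rows, ordered by role) in each of the 12 libraries (columns), as log2 CPM minus the gene's mean over all libraries, on a colour scale that stops at 1 log2 unit either way. Gsto1 is high in the 3 OE_CM libraries, Aldh3a1, Gstm1 and Gsta4 are low there, and Mgst1 is low in OE_CM and TGF_VEC_CM and high in TGF_KD_CM and VEC_CM.

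The comparison of OE_CM with VEC_CM asks what overexpression of the microRNA in adipocytes changes in fibroblasts that receive their medium. The clearest pattern lay in the conjugating and detoxifying enzymes: 6 of 7 glutathione transferases fell, with Gstm1, Gsta4 and Mgst1 lowest, while Gsto1 rose 2.22-fold. Aldh3a1 and Nqo1 fell as well, whereas thioredoxin, its reductase, the mitochondrial and extracellular superoxide dismutases and 2 of 4 glutathione synthesis genes rose. Of the 35 genes, 11 were higher and 17 lower by edgeR's quasi-likelihood test (adjusted p under 0.05), against 28.4% higher and 25.7% lower (54% in either direction) over all 14400 genes, that is 31.4% and 48.6% of the genes described here. Among the 9247 genes with a mean of at least 10 CPM, a level chosen after the data were seen and one that all 35 exceed, 39.2% were higher and 26.6% lower (65.8% in either direction). Tested against a 1.2-fold change, 3 of the 35 were higher and 8 lower, against 9.76% and 11.6% (21.4% together) of all genes. The median log2 fold change was -0.06 over the 35 genes and -0.01 over all genes tested. Scaling with upper-quartile factors gave 9 higher and 20 lower, and without OE_CM replicate 1 the counts were 11 and 15. Over all genes these settings called 7857 and 7302 in either direction, against 7778 in the main fit. With upper-quartile factors the calls over all genes also moved towards lower, as given in the last section.

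Gsto1 encodes omega-class glutathione transferase 1, a thiol transferase that reduces dehydroascorbate and methylated arsenic. Its level was 729.5, 754 and 719 CPM in the OE_CM libraries, against 326, 339 and 327 CPM in the VEC_CM libraries. Every OE_CM library was thus far above every VEC_CM library, and the log2 fold change was 1.15 with a standard error (SE) of 0.026 (edgeR adjusted p = 2.02e-44).

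The alpha, mu, pi and microsomal transferases moved the other way. Gstm1, a mu-class enzyme, was at 156, 156 and 157 CPM in OE_CM, against 370.2, 375 and 399 CPM in VEC_CM, so all OE_CM libraries lay well below VEC_CM. The log2 fold change was -1.28 (SE 0.028, edgeR adjusted p = 3.2e-47). Gsta4, the alpha-class enzyme that conjugates 4-hydroxynonenal, a product of lipid peroxidation, had 28.02, 25.7 and 23.3 CPM in OE_CM, against 51.5, 51.3 and 54.3 CPM in VEC_CM. Mgst1, a membrane-bound transferase that also reduces lipid hydroperoxides, had 103, 93.0 and 104 CPM in OE_CM, against 186, 187 and 189 CPM in VEC_CM. The groups did not overlap for either gene, with log2 fold changes of -1.03 (SE 0.052) for Gsta4 and -0.91 (SE 0.035) for Mgst1. Gstm2 (log2 fold change -0.62), Gstp1 (-0.40) and Gstm5 (-0.19) fell by less. The call of Gstm5 was lost without OE_CM replicate 2 (edgeR adjusted p = 0.055), OE_CM replicate 3 (0.141) or VEC_CM replicate 3 (0.0642).

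Aldh3a1, which encodes an aldehyde dehydrogenase of medium-chain and aromatic aldehydes, was furthest from its control level. It stood at 6.41, 4.81 and 6.67 CPM in OE_CM, against 33.7, 34.9 and 36.4 CPM in VEC_CM, a difference of 5.88-fold and of -2.55 on the log2 scale (SE 0.104, edgeR adjusted p = 5.5e-18). Nqo1 had 12.2, 11.2 and 13.3 CPM in OE_CM and 19.8, 21.9 and 23.9 CPM in VEC_CM, without overlap (log2 fold change -0.84, SE 0.080). Cbr1, a carbonyl reductase, fell by 0.27 on the log2 scale. The other 2 genes of this group rose without overlap: Hmox1, the heme oxygenase induced by NRF2 and by many stresses, averaged 44.1 ± 1.45 CPM in OE_CM and 36.4 ± 0.455 CPM in VEC_CM (SD, n = 3 each), and Abcc1, a pump that exports glutathione conjugates, averaged 161 ± 5.80 CPM in OE_CM and 134 ± 1.39 CPM in VEC_CM. Their log2 fold changes were 0.28 (SE 0.055) and 0.27 (SE 0.037).

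**Figure D2:**
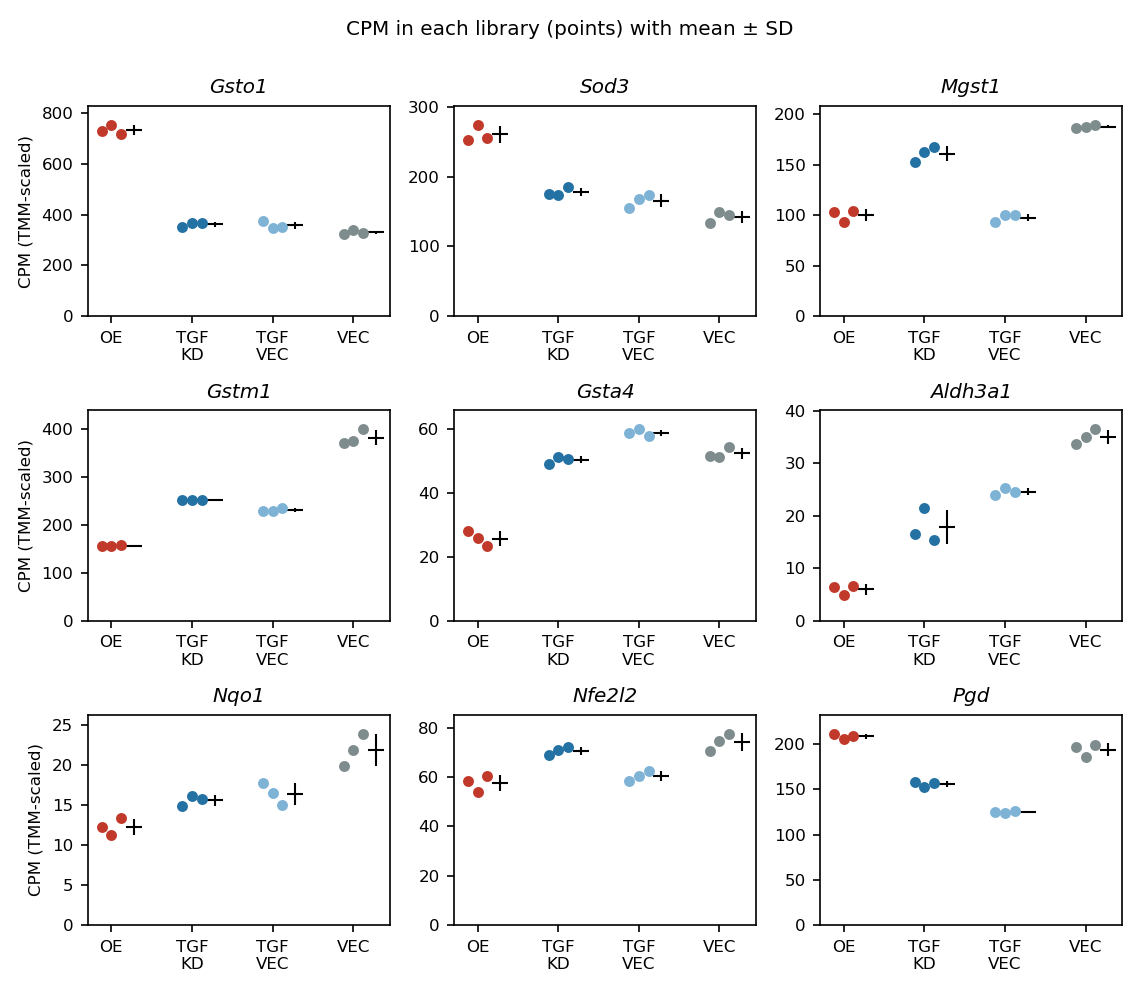
CPM of 9 genes in each library (points), with the mean and SD of each group of 3 beside them, all axes starting at 0; the groups are OE_CM, TGF_KD_CM, TGF_VEC_CM and VEC_CM. OE_CM libraries lie above all others for Gsto1 and Sod3 and below all others for Gstm1, Gsta4, Aldh3a1 and Nqo1, and Mgst1 averages 99.9 CPM in OE_CM and 97.5 CPM in TGF_VEC_CM, below the other groups.

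Among the genes that remove superoxide and peroxide, the dismutases split by compartment. Sod3, the extracellular dismutase, had 252, 274 and 256 CPM in OE_CM, against 133, 149 and 144 CPM in VEC_CM, and Sod2, the mitochondrial one, had 160.3, 158 and 154 CPM in OE_CM, against 116, 111 and 118 CPM in VEC_CM. Both rose without overlap, with log2 fold changes of 0.88 (SE 0.044) and 0.45 (SE 0.034), whereas cytosolic Sod1 fell by 0.12. The peroxide-removing genes Gpx4 (-0.24), Cat (catalase, -0.14) and Gpx1 (the cytosolic glutathione peroxidase, -0.07) fell. The calls of Cat and Gpx1 each rested on single libraries: without OE_CM replicate 3 the adjusted p of Cat was 0.0509, and without VEC_CM replicate 3 it was 0.0588. For Gpx1 it was 0.0591 without OE_CM replicate 1, 0.0955 without OE_CM replicate 2 and 0.198 without VEC_CM replicate 3.

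Of the 6 thioredoxin and peroxiredoxin genes, 3 rose, 1 fell and 2 did not pass. Txn1 had 426, 418 and 417 CPM in OE_CM and 345, 360.1 and 343 CPM in VEC_CM. Txnrd1, the reductase that recycles thioredoxin with NADPH, had 321, 308 and 299 CPM in OE_CM and 269.7, 259 and 254 CPM in VEC_CM. Prdx6, a peroxiredoxin that uses glutathione and also cleaves phospholipids, had 358, 375 and 369.8 CPM in OE_CM and 304, 298 and 288 CPM in VEC_CM. None of the 3 overlapped between the groups, and their log2 fold changes were 0.27, 0.25 and 0.31 (SE 0.029, 0.028 and 0.027). Srxn1, the sulfiredoxin that repairs overoxidized peroxiredoxins, fell by 0.07, a call lost without OE_CM replicate 1 (edgeR adjusted p = 0.0791), VEC_CM replicate 1 (0.0552) or VEC_CM replicate 3 (0.0628). Prdx1 and Prdx2 did not pass the test, with log2 fold changes of -0.03 (95% interval -0.08 to 0.02) and 0.07 (95% interval -0.000697 to 0.137). The groups of Prdx2 did not overlap either. How many of all genes do not overlap was not counted, so a lack of overlap is description only.

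In glutathione synthesis, Gclc, the catalytic subunit of the rate-limiting ligase, averaged 59.4 ± 2.31 CPM in OE_CM and 52.1 ± 0.598 CPM in VEC_CM, and Gss, the synthetase of the last step, averaged 53.7 ± 0.419 CPM in OE_CM and 46.5 ± 1.19 CPM in VEC_CM (SD, n = 3 each). Both rose, by 0.19 (SE 0.045) and 0.21 (SE 0.047) on the log2 scale. The call of Gclc was lost with upper-quartile factors (log2 fold change 0.10, edgeR adjusted p = 0.0546). Gclm, the ligase's modifier subunit, and Gsr, which reduces oxidized glutathione, did not pass, with log2 fold changes of 0.03 and 0.08. For Gsr this was so although the groups did not overlap. The genes of NADPH supply and the pentose phosphate pathway moved little. G6pdx, which opens the pathway, fell by 0.19, and Taldo1 (transaldolase) fell by 0.12. Pgd (6-phosphogluconate dehydrogenase) rose by 0.11, a value that was 0.02 with upper-quartile factors (edgeR adjusted p = 0.589). Tkt (transketolase, -0.03) and Me1 (cytosolic malic enzyme, 0.05) did not pass.

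Of the regulators, Nfe2l2 had 58.5, 53.9 and 60.4 CPM in OE_CM, against 70.5, 74.7 and 77.6 CPM in VEC_CM. The groups did not overlap, and the log2 fold change was -0.37 (SE 0.043, edgeR adjusted p = 4.69e-11). Keap1 had 125, 131 and 131 CPM in OE_CM and 129, 134 and 142 CPM in VEC_CM, which overlap, and did not pass (log2 fold change -0.06, edgeR adjusted p = 0.109). With upper-quartile factors Keap1, Prdx1 and Tkt passed as lower.

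Markers of other cells differed between the same groups. The 6 adipocyte markers summed to between 221 and 229 CPM in OE_CM and between 385 and 402 CPM in VEC_CM. Fabp4 averaged 85.7 CPM in OE_CM and 260 CPM in VEC_CM, whereas Pparg averaged 125 and 124 CPM and Cidec 13.2 and 7.92 CPM. Lep was at 0 in both groups, and Adipoq averaged 0.299 CPM in OE_CM and 0.537 CPM in VEC_CM. The 7 leukocyte and macrophage markers summed to between 23.4 and 38.3 CPM in OE_CM and between 46.0 and 48.4 CPM in VEC_CM. Cardiomyocyte markers, 7 of them, summed to between 163 and 167 CPM in OE_CM and between 70.0 and 75.2 CPM in VEC_CM, nearly all from Tnnt2, while Actc1 and Myl2 were at 0 in both. The 5 smooth muscle and pericyte markers summed to between 875 and 878 CPM in OE_CM and between 555 and 576 CPM in VEC_CM. Nearly all of this was Cspg4, which averaged 876 CPM in OE_CM and 565 CPM in VEC_CM. The 4 epicardial and mesothelial markers, nearly all Msln, summed to between 46.8 and 50.1 CPM in OE_CM and between 58.8 and 64.9 CPM in VEC_CM. Fibroblast markers themselves, 9 of them, summed to between 11932 and 12195 CPM in OE_CM and between 11242 and 11398 CPM in VEC_CM. The 4 Schwann and neural markers summed to between 7.86 and 10.2 CPM in OE_CM and between 11.6 and 15.3 CPM in VEC_CM, and the 6 endothelial ones to at most 0.595 CPM in OE_CM and 0.710 CPM in VEC_CM. Their part in the results was not tested, and in bulk RNA fewer cells of a type and less RNA per cell cannot be told apart.

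The comparison of TGF_KD_CM with TGF_VEC_CM asks what inhibition of the microRNA in adipocytes changes in fibroblasts that also receive TGF-beta1. Mgst1 rose most, 1.65-fold, and Sod2, Gpx1 and Pgd rose 1.27-fold, 1.26-fold and 1.25-fold, while Aldh3a1 fell. Of the 35 genes, 14 were higher and 7 lower by edgeR's test, against 23% higher and 20.2% lower (43.3% in either direction) over all genes, that is 40% and 20% of the genes described here. With limma on log2(FPKM + 1) the counts were 10 higher and 8 lower. Over all genes that setting called 5962 in either direction, against 6229 with edgeR. Among genes of at least 10 CPM, 31.1% were higher and 23.1% lower (54.3% together). Tested against a 1.2-fold change, 3 were higher and 1 lower, against 5.53% and 4.93% (10.5% together) of all genes. The median log2 fold change was 0.07 over the 35 genes and 0.00 over all genes tested.

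Mgst1 was at 153, 162 and 167 CPM in TGF_KD_CM, against 93.1, 99.8 and 99.6 CPM in TGF_VEC_CM. The groups were well apart, with a log2 fold change of 0.72 (SE 0.035, edgeR adjusted p = 7.79e-24), and no other of the 35 genes changed by as much as 1.5-fold. The transferases were otherwise mixed. Gstm1 rose by 0.12 on the log2 scale, at 251, 252 and 251 CPM in TGF_KD_CM against 228, 229 and 235 CPM in TGF_VEC_CM. Gsta4, Gstm5 and Gstp1 each fell by 0.23. Gsto1 (log2 fold change 0.01, 95% interval -0.04 to 0.07) and Gstm2 (0.06, 95% interval -0.01 to 0.13) did not pass.

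Of the 6 tested genes for superoxide and peroxide removal, 5 rose and none fell. Sod2 had 162, 146 and 162 CPM in TGF_KD_CM, against 127, 119 and 124 CPM in TGF_VEC_CM. Gpx1 had 209.8, 212 and 217 CPM in TGF_KD_CM, against 170.2, 164 and 174 CPM in TGF_VEC_CM. Neither overlapped between the groups, and their log2 fold changes were 0.34 (SE 0.033) and 0.33 (SE 0.028). Cat rose by 0.18, Gpx4 by 0.10 and Sod1 by 0.08. Sod3 (0.11, edgeR adjusted p = 0.0617) did not pass, although its groups did not overlap. It passed without TGF_VEC_CM replicate 3 (0.0166) and without the low-count filter (0.000561). The calls of Sod1 and Gpx4 were not stable: that of Sod1 was lost with upper-quartile factors, with limma on FPKM and on leaving out any of TGF_KD_CM replicates 2 and 3 or TGF_VEC_CM replicates 1, 2 and 3 (adjusted p up to 0.174), and that of Gpx4 with limma on FPKM, without TGF_KD_CM replicate 3 (0.0573) and without TGF_VEC_CM replicate 1 (0.0605).

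Pgd had 159, 153 and 157 CPM in TGF_KD_CM, against 125, 124 and 126 CPM in TGF_VEC_CM, and G6pdx had 155, 148 and 152 CPM in TGF_KD_CM, against 137, 134 and 129.8 CPM in TGF_VEC_CM. Both NADPH-forming enzymes of the pentose phosphate pathway thus rose without overlap, by 0.32 (SE 0.030) and 0.18 (SE 0.030) on the log2 scale. Taldo1, of the pathway's non-oxidative arm, fell by 0.27, and Tkt and Me1 did not pass (-0.02 and -0.05). Txn1 and Prdx6 rose by 0.14 each, and Txnrd1 fell by 0.16. Srxn1, Prdx1, Prdx2, Gclc, Gclm and Gss did not pass, with log2 fold changes between -0.03 and 0.07. Gsr rose by 0.10, a call lost in most of the alternative fits (adjusted p of 0.243 without TGF_KD_CM replicate 1).

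Nfe2l2 had 68.9, 70.9 and 72.2 CPM in TGF_KD_CM, against 58.5, 60.5 and 62.5 CPM in TGF_VEC_CM, and Keap1 had 125, 134 and 132 CPM in TGF_KD_CM, against 117, 118 and 124 CPM in TGF_VEC_CM. Both regulators rose without overlap, Nfe2l2 by 0.22 (SE 0.043) and Keap1 by 0.12 (SE 0.034). The call of Keap1 was lost with limma on log2(FPKM + 1), at an adjusted p of 0.0887. Aldh3a1 fell by 0.46 (SE 0.091, edgeR adjusted p = 0.000131), with 16.6, 21.4 and 15.4 CPM in TGF_KD_CM against 23.9, 25.2 and 24.6 CPM in TGF_VEC_CM. Abcc1 fell by 0.20, and Nqo1, Hmox1 and Cbr1 did not pass (-0.07, 0.11 and 0.09). Adipocyte markers summed to between 253 and 269 CPM in TGF_KD_CM and between 274 and 289 CPM in TGF_VEC_CM, and leukocyte and macrophage markers to between 31.8 and 33.9 CPM in TGF_KD_CM and between 35.3 and 38.7 CPM in TGF_VEC_CM. Smooth muscle and pericyte markers, nearly all Cspg4, summed to between 600.0 and 615 CPM in TGF_KD_CM and between 784 and 807 CPM in TGF_VEC_CM. Epicardial and mesothelial markers, nearly all Msln, summed to between 74.7 and 78.1 CPM in TGF_KD_CM and between 90.2 and 93.5 CPM in TGF_VEC_CM. Cardiomyocyte markers, nearly all Tnnt2, summed to between 97.2 and 104 CPM in TGF_KD_CM and between 105 and 116 CPM in TGF_VEC_CM. The 9 fibroblast markers summed to between 11397 and 11740 CPM in TGF_KD_CM and between 10319 and 10454 CPM in TGF_VEC_CM. Their part in the result was not tested.

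**Figure D3:**
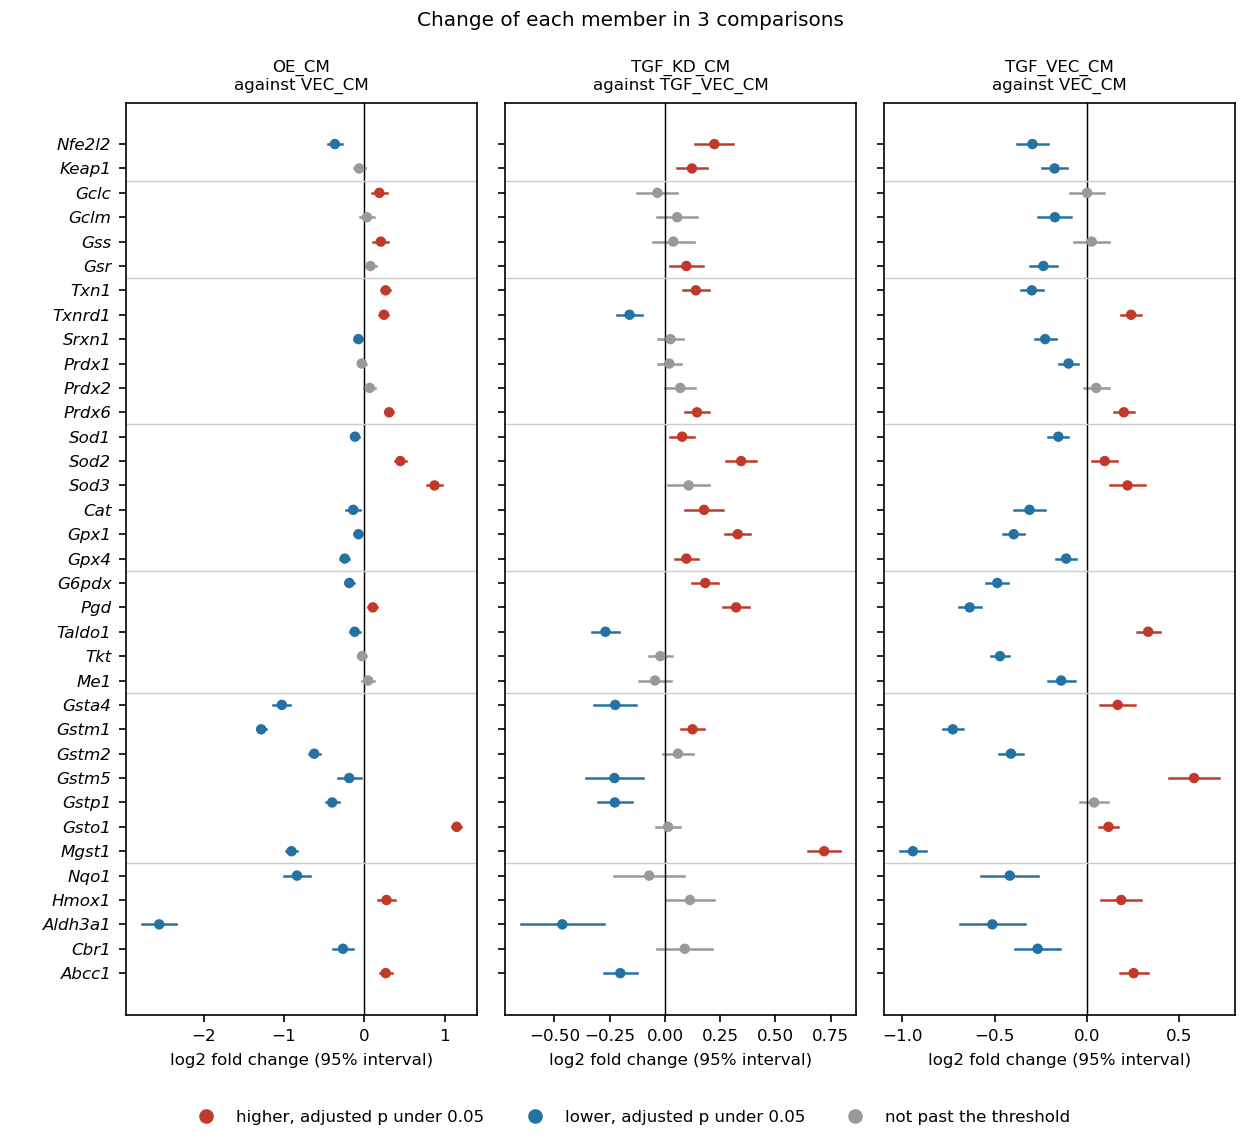
Log2 fold change of each of the 35 tested genes (rows, ordered by role) in 3 comparisons, with 95% intervals; red points passed the test as higher, blue as lower and grey did not pass. The 3 panels have their own scales, and the widest range, from -2.55 for Aldh3a1 to 1.15 for Gsto1, is that of OE_CM against VEC_CM.

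The 2 comparisons above share no library, so the effect of overexpression could be set against that of inhibition in the same model. Only the inhibition comparison was made with TGF-beta1, and it belongs to another part of the study. A difference between the effects therefore cannot be told apart from TGF-beta1 or the part of the study. The difference between the effects passed the test for 26 of the 35 genes, 9 with a higher and 17 with a lower value in the overexpression arm, against 25.6% higher and 26.8% lower (52.5% in either direction) over all genes, and 33.7% and 31.6% (65.3% together) of genes of at least 10 CPM. With a 1.2-fold limit 4 were higher and 10 lower, against 13.5% and 14.9% (28.4% together) of all genes. With upper-quartile factors 6 were higher and 18 lower, and without OE_CM replicate 1 the counts were 9 and 16. Over all genes these settings called 7683 and 7345 in either direction, against 7553 in the main fit. Called in opposite directions were 10 of the 35 genes. Lower in OE_CM and higher in TGF_KD_CM were 8 of them, namely Nfe2l2, Sod1, Cat, Gpx1, Gpx4, G6pdx, Gstm1 and Mgst1. The reverse pair was Txnrd1 and Abcc1. Over all 14400 genes, 8.69% were lower in OE_CM and higher in TGF_KD_CM, and 9.56% the reverse. Lower in both were 5 genes (Taldo1, Gsta4, Gstm5, Gstp1 and Aldh3a1) and higher in both were 4 (Txn1, Prdx6, Sod2 and Pgd), against 4.64% and 5.56% of all genes. Such pairs were not counted among genes of at least 10 CPM, where calls in each comparison were more frequent.

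Mgst1 differed most between the effects after Aldh3a1, by -1.63 on the log2 scale (SE 0.050, edgeR adjusted p = 3.29e-33). Its level was lower by 0.91 in OE_CM and higher by 0.72 in TGF_KD_CM, each against its own vector medium. Gstm1 differed by -1.41 (SE 0.039) and Nfe2l2 by -0.59 (SE 0.061). For Gsto1 the difference was 1.14 (SE 0.037) and for Sod3 it was 0.77 (SE 0.063), both genes whose change under inhibition did not pass. Aldh3a1 fell in both, and its fall was larger by 2.09 (SE 0.140) under overexpression. For Sod2, which rose in both, the difference did not pass (0.10, 95% interval 0.01 to 0.20, edgeR adjusted p = 0.0576).

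**Figure D4:**
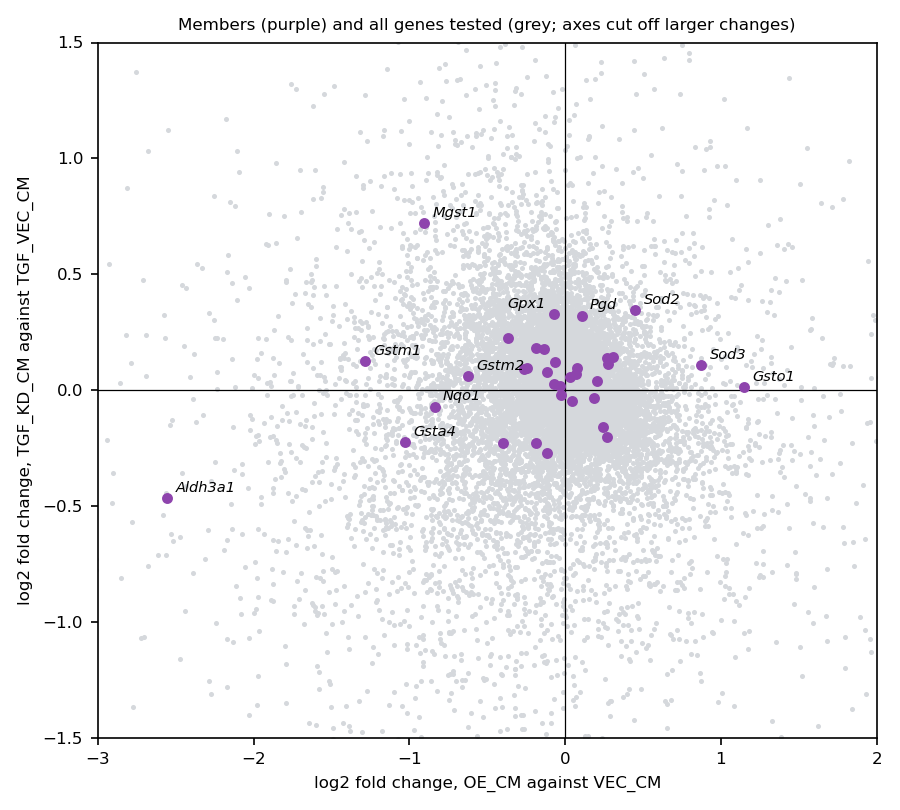
Log2 fold change of OE_CM against VEC_CM (x axis) and of TGF_KD_CM against TGF_VEC_CM (y axis) for the 35 genes (purple) and all 14400 genes tested (grey, cut off beyond the axes). Mgst1 lies in the upper left at -0.91 and 0.72, Aldh3a1 in the lower left at -2.55 and -0.46, and Gsto1 on the right at 1.15 and 0.01.

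TGF_VEC_CM and VEC_CM differ by TGF-beta1 and by the part of the study they belong to, which cannot be told apart, and each serves as the control of a comparison above, so directions are not counted across comparisons. Of the 35 genes, 10 were higher and 21 lower, against 28.9% higher and 29.4% lower (58.3% in either direction) over all genes, that is 28.6% and 60% of the genes described here. Among genes of at least 10 CPM, 28.9% were higher and 39.3% lower (68.2% together). Tested against a 1.2-fold change, 2 were higher and 9 lower, against 14% and 10.8% (24.8% together) of all genes. The median log2 fold change was -0.15 over the 35 genes and 0.00 over all genes tested. Mgst1, Gstm1, G6pdx, Pgd, Tkt and Me1 fell, and Gstm5 and Taldo1 rose. Marker sums moved between the same groups, and their part in the result was not tested. Adipocyte markers summed to between 274 and 289 CPM in TGF_VEC_CM and between 385 and 402 CPM in VEC_CM, and leukocyte and macrophage markers to between 35.3 and 38.7 CPM in TGF_VEC_CM and between 46.0 and 48.4 CPM in VEC_CM. Smooth muscle and pericyte markers, nearly all Cspg4, summed to between 784 and 807 CPM in TGF_VEC_CM and between 555 and 576 CPM in VEC_CM. Cardiomyocyte markers, nearly all Tnnt2, summed to between 105 and 116 CPM in TGF_VEC_CM and between 70.0 and 75.2 CPM in VEC_CM. Epicardial and mesothelial markers, nearly all Msln, summed to between 90.2 and 93.5 CPM in TGF_VEC_CM and between 58.8 and 64.9 CPM in VEC_CM. The 9 fibroblast markers summed to between 10319 and 10454 CPM in TGF_VEC_CM and between 11242 and 11398 CPM in VEC_CM.

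Mgst1 had 93.1, 99.8 and 99.6 CPM in TGF_VEC_CM, against 186, 187 and 189 CPM in VEC_CM, a log2 fold change of -0.94 (SE 0.035). Gstm1 averaged 230.5 ± 3.58 CPM in TGF_VEC_CM and 381 ± 15.4 CPM in VEC_CM (SD, n = 3 each), a log2 fold change of -0.73 (SE 0.027). Gstm2 fell by 0.41, whereas Gstm5, of the same gene cluster, rose by 0.58 (SE 0.067), at 25.7, 26.3 and 27.7 CPM in TGF_VEC_CM against 17.8, 17.5 and 17.9 CPM in VEC_CM. None of these 4 genes overlapped between the groups. Gsto1 and Gsta4 rose by 0.12 and 0.17, and Gstp1 did not pass (0.04).

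In the pentose phosphate pathway, Pgd had 125, 124 and 126 CPM in TGF_VEC_CM, against 197, 185 and 199 CPM in VEC_CM. G6pdx averaged 134 ± 3.55 CPM in TGF_VEC_CM and 187 ± 3.0 CPM in VEC_CM, and Tkt averaged 238 ± 2.94 CPM in TGF_VEC_CM and 330.5 ± 2.17 CPM in VEC_CM (SD, n = 3 each). Log2 fold changes of these 3 were -0.63, -0.49 and -0.47, without overlap, and Me1 fell by 0.14. Taldo1 rose by 0.33, at 169.6, 171 and 169.6 CPM in TGF_VEC_CM against 131, 142 and 133 CPM in VEC_CM. Aldh3a1 fell by 0.51, Nqo1 by 0.42, Gpx1 by 0.40, Cat by 0.31, Txn1 by 0.30 and Nfe2l2 by 0.29. Cbr1 (0.27), Gsr (0.24), Srxn1 (0.23), Keap1 and Gclm (0.17 each), Sod1 (0.15), Gpx4 (0.11) and Prdx1 (0.10) fell by less. Abcc1, Txnrd1, Sod3, Prdx6, Hmox1 and Sod2 rose, by between 0.10 and 0.25. Gclc, Gss and Prdx2 did not pass (log2 fold changes between 0.00 and 0.05). Calls lost without 1 library were Hmox1 without TGF_VEC_CM replicate 1 (edgeR adjusted p = 0.0555), Gclm without VEC_CM replicate 1 (0.0562) and Sod2 without VEC_CM replicate 2 (0.110).

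The mu-class transferases lie next to each other on chromosome 3, in the RefSeq order Gstm5, Gstm7, Gstm6, Gstm3, Gstm2, Gstm1 and Gstm4, of which Gstm1, Gstm2 and Gstm5 belong to the 36 genes. All 6 that could be tested fell in OE_CM, from -0.19 for Gstm5 to -2.03 for Gstm7, and Gstm3 had too few counts. In TGF_KD_CM, Gstm5, Gstm7 and Gstm4 fell, Gstm1 rose, and Gstm6 and Gstm2 did not pass. In TGF_VEC_CM against VEC_CM the ends of the row, Gstm5 and Gstm4, rose by 0.58 and 0.43, and Gstm7, Gstm2 and Gstm1 fell. Gstm6, inside the row, did not pass (0.18). Counts of these genes carry a limit: 18.9% of the stretches of 50 bases in the transcripts of Gstm1, 9.44% of those of Gstm5 and 5.65% of those of Gstm2 also occur in other genes, including a Gstm2 pseudogene for Gstm1. Reads from such stretches may be split or dropped. The same share was 33.7% for Gstp1, all with its neighbour Gstp2, 34.7% for Gpx4, with a pseudogene, and 28.3% for Me1. It was 21.0% for Sod2, 16.9% for G6pdx, 12.0% for Prdx2 and 10.3% for Gss. No stretch was shared for Gsto1, Mgst1, Gsta4, Aldh3a1, Nqo1 and Sod3.

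**Figure D5:**
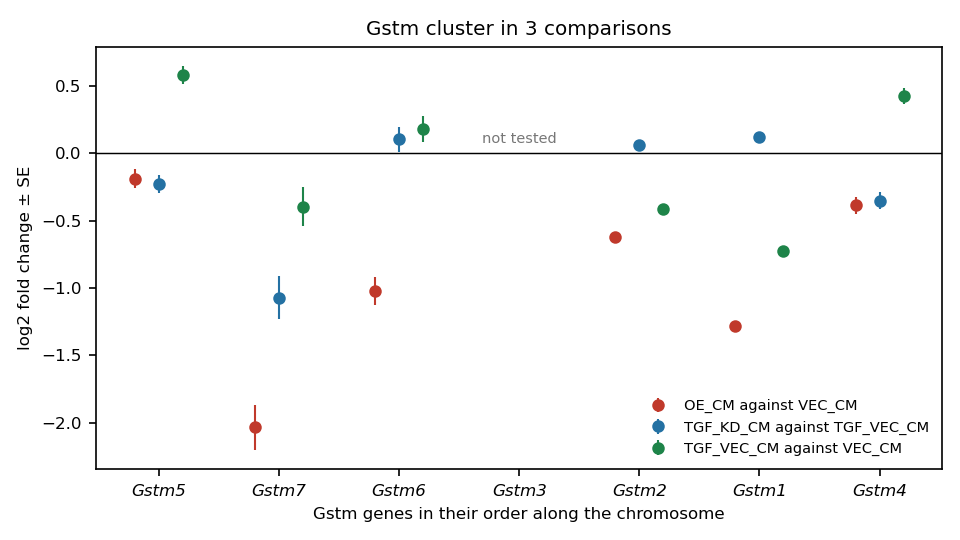
Log2 fold change and SE of the mu-class transferase genes in their order along chromosome 3, in 3 comparisons; Gstm3 was not tested. OE_CM against VEC_CM lies below 0 for all 6 genes tested. TGF_VEC_CM against VEC_CM lies above 0 for Gstm5 and Gstm4, at 0.58 and 0.43, and for Gstm6, at 0.18, which did not pass. It lies below 0 for Gstm7, Gstm2 and Gstm1.

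Other genes of the pathway, from lists of 111 symbols that are not among the 36, were counted in the same fit. Of 98 tested, 29 were higher and 36 lower in OE_CM, 32 higher and 16 lower in TGF_KD_CM, and 26 higher and 38 lower in TGF_VEC_CM against VEC_CM. Over all genes the shares higher and lower were 28.4% and 25.7% in OE_CM, 23% and 20.2% in TGF_KD_CM, and 28.9% and 29.4% in TGF_VEC_CM against VEC_CM, so that the count higher in OE_CM was near the share over all genes. The counts of single lists below are to be read against the same shares. Of the genes named from these lists, Slc7a11, Ephx1, Gsto2, Mafg, Mafk, Cul3, Sqstm1, Arnt, Cyp1b1 and Tiparp were chosen after their values were seen. Cystine uptake and glutathione turnover was the list with most rises in OE_CM, 10 of 16 tested against 3 that fell. Its largest change was a fall, that of Oplah, which recycles 5-oxoproline from glutathione breakdown, with 5.62 ± 0.418 CPM in OE_CM and 14.8 ± 2.49 CPM in VEC_CM. The rises included Slc7a11, the cystine transporter, which averaged 18.8 ± 1.13 CPM in OE_CM and 13.3 ± 2.26 CPM in VEC_CM, and Cth, which forms cysteine, with 38.1 ± 2.44 CPM in OE_CM, against 25.5 ± 3.51 CPM in VEC_CM (SD, n = 3 each). Slc7a11 also rose in TGF_KD_CM, with 20.0 ± 0.661 CPM in TGF_KD_CM and 13.8 ± 1.23 CPM in TGF_VEC_CM. Cth did so too, with 31.3 ± 1.2 CPM in TGF_KD_CM and 20.3 ± 0.278 CPM in TGF_VEC_CM. Other NRF2 target candidates went mostly down in OE_CM, 14 of 23 against 3 that rose. Osgin1, a growth inhibitor induced by oxidants, averaged 7.32 ± 0.154 CPM in OE_CM and 16.4 ± 0.997 CPM in VEC_CM, and Ephx1, the microsomal epoxide hydrolase, 184 ± 2.75 CPM in OE_CM and 328 ± 7.64 CPM in VEC_CM.

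Among the other glutathione transferases, 8 of 14 tested fell in OE_CM and 2 rose. Gstt1, a theta-class enzyme, averaged 8.87 ± 1.39 CPM in OE_CM and 31.2 ± 2.13 CPM in VEC_CM, a log2 fold change of -1.82, and Gsto2, the paralog of Gsto1, rose by 0.44. Of the partners of NRF2, 4 of 10 rose in OE_CM and none fell. Over all genes 28.4% were higher and 25.7% lower. Among genes of at least 10 CPM the shares were 39.2% and 26.6%, so the count of rises was near that share. Those that rose were Mafg and Mafk, small MAF proteins, Cul3, the ligase scaffold that works with KEAP1, and Sqstm1, an adaptor that binds KEAP1. In TGF_KD_CM 6 of the 10 partners rose and 3 fell, with Sqstm1 at 613 ± 15.7 CPM in TGF_KD_CM and 398 ± 6.63 CPM in TGF_VEC_CM. Ugt1a6a, a glucuronosyltransferase, averaged 17.7 ± 1.15 CPM in TGF_KD_CM and 6.74 ± 0.473 CPM in TGF_VEC_CM, a log2 fold change of 1.39. Idh1, which forms NADPH from isocitrate, averaged 70.7 ± 6.03 CPM in TGF_KD_CM and 37.2 ± 0.260 CPM in TGF_VEC_CM, and Xdh, xanthine dehydrogenase, 245 ± 4.54 CPM in TGF_KD_CM and 134 ± 1.48 CPM in TGF_VEC_CM. In OE_CM both fell, with log2 fold changes of -1.34 and -1.1. Further large falls in OE_CM were those of Abcc3, an exporter of conjugates (log2 fold change -1.34), Aox1, aldehyde oxidase (-1.31), and Aldh1l1, a folate enzyme that forms NADPH (-1.31). In TGF_KD_CM, Msra, which reduces oxidized methionine, rose by 0.81, Abcc3 by 0.77 and Gpx7, a peroxidase of the endoplasmic reticulum, by 0.75. The targets of the aryl hydrocarbon receptor battery include Aldh3a1 and Nqo1, which are members and were already counted above. Of 5 tested genes of this battery, 3 fell in OE_CM (these 2 and Arnt), and Cyp1b1 and Tiparp did not pass. The receptor gene Ahr was not among those tested.

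In TGF_VEC_CM against VEC_CM, the largest change among these pathway genes was that of Ugt1a6a, with 6.74 ± 0.473 CPM in TGF_VEC_CM and 23.7 ± 1.59 CPM in VEC_CM (SD, n = 3 each), a log2 fold change of -1.82. Idh1 (-1.63), Msra (-1.28), Gpx7 (-1.19), Xdh (-0.91) and Fth1, the ferritin heavy chain (-0.85), also fell. Duox2, an oxidase that forms hydrogen peroxide, rose by 1.65, at 2.32 ± 0.116 CPM in TGF_VEC_CM and 0.737 ± 0.343 CPM in VEC_CM, and Ggct, which splits gamma-glutamyl peptides, rose by 0.84.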

How the data were processed

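Messenger RNA of 12 libraries was measured, and the authors deposited whole-number counts per gene together with FPKM values. FPKM, as deposited, equalled count over library total and gene length for all 24619 genes within 0.01%. The build was GRCm38 (mm10), per the submitters' processing notes; for aligner, counter, strand and gene models the sources used here give nothing. Genes were filtered with filterByExpr, which left 14400, scaled with TMM factors and tested with edgeR 4.0.16 (robust quasi-likelihood fit over all 12 libraries with group means, Benjamini-Hochberg adjustment over all genes tested, threshold 0.05). The SE was the log2 fold change divided by the square root of F. The fit of OE_CM against VEC_CM was run on simulated counts with known fold changes; smaller changes were recovered incompletely, and the criterion for recovery was narrowed to larger changes of well-counted genes after a first run. Alternatives were no filter or a filter of 1 CPM, DESeq2 1.42.0 size factors and Wald test, upper-quartile factors, limma 3.58.1 on log2(FPKM + 1) and log2(FPKM + 0.1), only the groups compared, a test against a 1.2-fold change, a replicate block and leaving out each library. Named pathway genes were the 8 with the largest change among those past the threshold with a mean of at least 1 CPM in each comparison, with exceptions given in the text. The members and lists were chosen with earlier results of these data known. Promoter windows came from RefSeq, and shared stretches of 50 bases from GENCODE vM21 transcripts.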

Additional observations from a re-analysis of the deposited data

How the results depend on the processing

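No fold change of the 35 genes that passed the test turned its sign under any alternative run, but several that had not passed did. With upper-quartile factors, log2 fold changes in OE_CM were -0.05 for Gclm, -0.01 for Gsr, -0.02 for Prdx2 and -0.04 for Me1, against 0.03, 0.08, 0.07 and 0.05 with TMM factors. In TGF_KD_CM, Gsto1 and Prdx1 turned negative with those factors, and Srxn1 with limma on FPKM. Against a 1.2-fold change instead of 0, the calls among the 35 genes were 3 higher and 8 lower in OE_CM, 3 and 1 in TGF_KD_CM, 2 and 9 in TGF_VEC_CM against VEC_CM, and 4 and 10 for the difference between effects. Over all genes this test called 3078, 1507, 3575 and 4091 in these comparisons, against 7778, 6229, 8396 and 7553 without the fold limit. Under every other alternative, 22 of 28 calls held in OE_CM, 17 of 21 in TGF_KD_CM, 27 of 31 in TGF_VEC_CM and 21 of 26 for the difference. Leaving out 1 library gave 7176 to 7821 calls over all genes in OE_CM, 5576 to 6308 in TGF_KD_CM, 7810 to 8527 in TGF_VEC_CM and 7237 to 7367 for the difference. Among the 35 genes it gave 11 to 12 higher and 13 to 17 lower in OE_CM, 12 to 15 and 7 in TGF_KD_CM, 9 to 10 and 20 to 21 in TGF_VEC_CM, and 8 to 11 and 15 to 17 for the difference. Over all genes, 4083 were higher and 3695 lower in OE_CM, but 2798 and 5059 with upper-quartile factors and 2778 and 4477 with limma on log2(FPKM + 1); the cause was not tested. Libraries with the same replicate number did not deviate together (correlations from -0.0372 to 0.0436). With a replicate block the counts were 11 higher and 17 lower in OE_CM, 15 and 7 in TGF_KD_CM, 10 and 21 in TGF_VEC_CM, and 11 and 17 for the difference. Depth limits only Gpx3, at 11 counts or fewer.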
